A study of Mus musculus with 17 samples.

Results

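The unfolded protein response and the secretory pathway were followed through 34 genes in RNA from mouse bile duct. The members were taken by name from the table of read counts, which lists 43346 genes: sensors and transcription factors of endoplasmic reticulum (ER) stress, targets of ATF4, ER chaperones and folding enzymes, genes of ER-associated degradation, subunits of the protein translocation channel, and the DNase-like gene Dnase1l1. All 34 members were in the table, and all 34 were among the 15795 genes that passed a filter on low counts. The study concerns extrahepatic cholangiocarcinoma, in which tumours arise in the ducts that carry bile once it has left the liver. Its 17 samples are all labelled bile duct, and the labels used here set no sample apart by genotype, strain, treatment, time or age. The headings of the count table name each library by a code and a running number, with 3 libraries each under the codes R62848, R62850, R63289, R63496 and R63500 and 2 under R63494. What a code stands for is not stated in the sources used here, so a code is treated as a property of the heading and not as a condition.

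Proteins destined for secretion or for membranes enter the ER through a channel, are folded there by chaperones and disulphide isomerases, and are returned to the cytosol for degradation when they fail to fold. When unfolded proteins build up, the sensors IRE1, PERK and ATF6 start a programme that slows protein synthesis and raises the chaperones and the degradation machinery. Epithelia that secrete mucus, plasma cells and the enzyme-producing acinar cells of the pancreas carry a large load of this kind, and all of these cell types can lie in or beside a bile duct.

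Between 16400556 and 24152314 reads were counted in a library. The members together took from 0.706% of all counts in R62850_3 (95% Wilson interval 0.7026% to 0.7104%) to 0.965% in R62848_2 (0.9602% to 0.9692%). The intervals cover counting error only. No pair of libraries agreed within sampling noise; the closest pair, R63289_2 and R63289_3, had a chi-square of 4.13 per degree of freedom. Markers of cholangiocytes were present in every library: the keratin Krt19 lay between 1003 and 1684 CPM (a library's counts scaled to the same normalised total in all libraries) and the adhesion molecule Epcam between 778 and 1193 CPM. The R62850 libraries also held RNA of pancreatic acinar enzymes. The summed level of 10 acinar markers was 5671 CPM in R62850_1, 22464 CPM in R62850_2 and 129026 CPM in R62850_3, against 40.4 to 157 CPM in the other libraries. These markers made up 10.8% of all counts in R62850_3, the library with the lowest share of members. That share is taken over all counts, whereas CPM refer to genes that passed the filter. In CPM, the 12 chaperones and folding enzymes summed to 5403 in R62850_3, and their lowest sum was 4475 in R63496_1. The part of the acinar RNA in the share was not tested.

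The promoters of several members carry known response elements, and their sequences are given first because most of these genes appear among the differences described later. RefSeq promoters (build GRCm38.p6, 250 bases before to 50 bases after the start site) were matched for 27 of the 34 members, Selk through its synonym. The ER stress element, at which ATF6 acts together with the CCAAT-binding factor NF-Y, was searched on both strands as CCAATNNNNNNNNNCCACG. It was present in 6 of the 27 members (22.2%), against 39 of all 32851 promoters (0.119%). A second form of the element, ATTGGNCCACG, was present in Herpud1 alone among the members (3.7%, against 0.0365% of all promoters). The core of the element bound by XBP1 and ATF6, TGACGTGG, was in no matched member and in 0.676% of all promoters. No match of one element overlapped that of another. A match is a stretch of letters and does not show binding.

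The following windows give the ER stress element of each of the 6 members in capitals, with up to 40 bases on either side, 5′ to 3′ on the strand of the gene and ending before the start site. The windows lie at chr8:84847035-84847133 on the minus strand (Calr), chr11:50325760-50325858 on the minus strand (Canx), chr15:88819480-88819578 on the plus strand (Creld2), chr10:75893202-75893300 on the plus strand (Derl3), chr12:17266451-17266549 on the plus strand (Pdia6) and chr19:6046492-6046575 on the plus strand (Syvn1).
Calr: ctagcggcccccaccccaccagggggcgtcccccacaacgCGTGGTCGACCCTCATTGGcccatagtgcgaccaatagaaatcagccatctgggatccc
Canx: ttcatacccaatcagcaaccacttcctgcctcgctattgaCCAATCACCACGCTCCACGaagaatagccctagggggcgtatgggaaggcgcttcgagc
Creld2: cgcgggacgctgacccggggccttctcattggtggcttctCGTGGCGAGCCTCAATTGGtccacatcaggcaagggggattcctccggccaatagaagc
Derl3: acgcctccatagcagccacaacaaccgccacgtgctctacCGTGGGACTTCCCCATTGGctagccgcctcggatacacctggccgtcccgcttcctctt
Pdia6: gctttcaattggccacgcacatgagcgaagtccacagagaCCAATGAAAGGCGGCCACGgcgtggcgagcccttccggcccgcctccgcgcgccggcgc
Syvn1: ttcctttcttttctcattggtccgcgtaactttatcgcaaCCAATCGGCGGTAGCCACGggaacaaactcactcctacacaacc

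The C/EBP-ATF response element, at which ATF4 acts, was searched on both strands as TGATGNAA. It was found in 4 of the 27 matched members (14.8%), against 3.97% of all promoters: Asns, Chac1, Herpud1 and Trib3. In Trib3 the match lay after the start site. The other 3 are shown with the match in capitals, at chr6:7693210-7693272 on the minus strand (Asns), chr2:119351009-119351096 on the plus strand (Chac1) and chr8:94386277-94386364 on the plus strand (Herpud1). The last line gives the second form of the ER stress element of Herpud1, at chr8:94386337-94386427 on the plus strand, a gene that thus carried both kinds of element.
Asns: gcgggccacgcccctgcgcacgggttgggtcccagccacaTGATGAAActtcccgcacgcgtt
Chac1: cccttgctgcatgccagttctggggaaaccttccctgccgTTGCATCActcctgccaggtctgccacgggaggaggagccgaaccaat
Herpud1: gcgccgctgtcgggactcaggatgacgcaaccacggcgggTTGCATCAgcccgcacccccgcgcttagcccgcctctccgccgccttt
Herpud1, ER stress element: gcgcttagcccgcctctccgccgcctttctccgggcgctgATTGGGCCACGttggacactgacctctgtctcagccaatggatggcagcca

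The members differed widely in level. Per gene length, the most abundant were the calcium-binding chaperone Calr (median 404 RPKM, the CPM divided by the gene length in kilobases), the disulphide isomerases P4hb (395 RPKM) and Pdia3 (313 RPKM), and the transcription factor Xbp1 (249 RPKM). Herpud1 followed with 161 RPKM and Canx with 104 RPKM. The lowest were the ATF4 targets Chac1 (1.62 RPKM) and Trib3 (3.42 RPKM). The median member stood at 32.2 RPKM, against 7.15 RPKM for all genes that passed the filter. Calr and P4hb overlapped over the libraries (349 to 493 RPKM and 327 to 457 RPKM), as did most neighbours in this order.

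**Figure D1:**
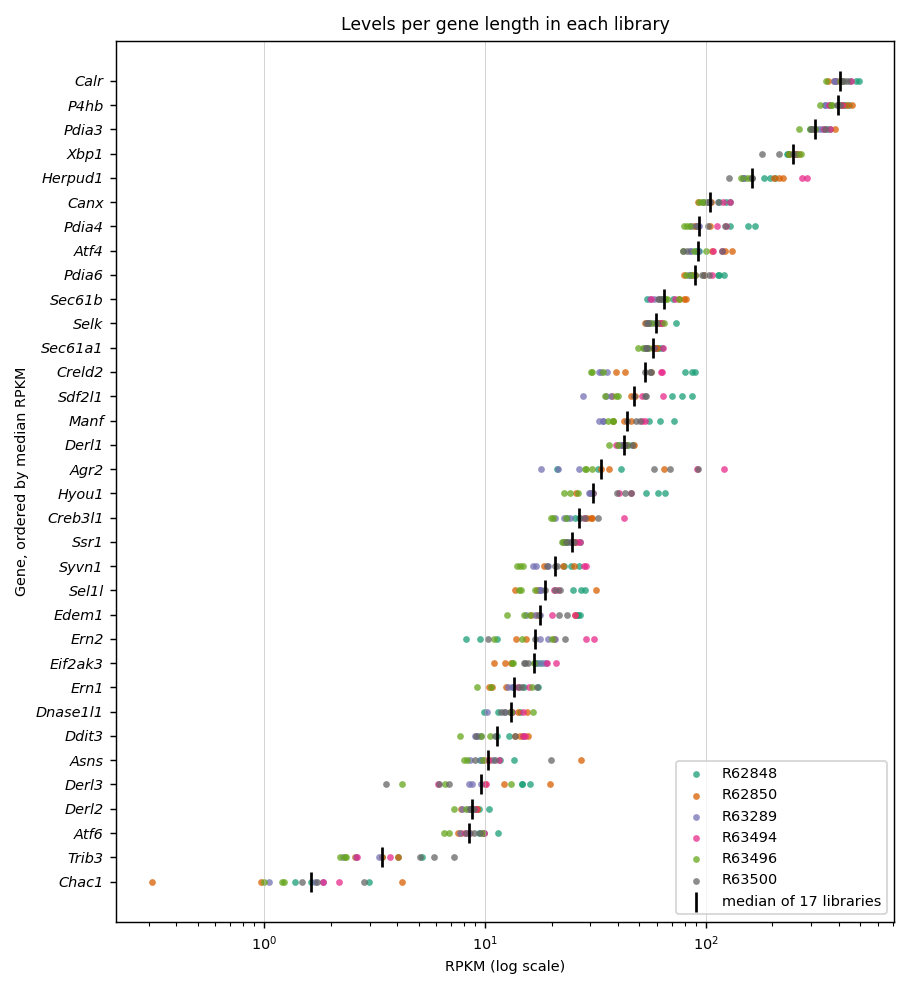
Level of each of the 34 genes per gene length (RPKM, log axis) in the 17 libraries, coloured by the code in the heading, with genes ordered by their median (black bars). Calr, P4hb, Pdia3 and Xbp1 stand highest, Trib3 and Chac1 lowest, and the points of Agr2, Derl3 and Chac1 spread most.

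Whether the members differed between codes was tested with edgeR's quasi-likelihood F test over the 6 codes, adjusted with Benjamini-Hochberg over all 15795 genes. Of the 34 members, 22 differed at an adjusted p below 0.05 (64.7%), while 48.7% of all genes did. By role, 11 of the 12 chaperones and folding enzymes differed, 5 of 8 sensors and factors, 3 of 7 genes of ER-associated degradation, 2 of 3 channel genes and 1 of 3 ATF4 targets. Dnase1l1, which ran from 21.0 to 35.0 CPM, did not pass (adjusted p = 0.265). The ratio of the highest to the lowest library exceeded 2 in 17 members (50%), against 48.1% of all genes, and the median SD of log2 CPM was 0.27 for the members and for all genes alike. The members stood at a higher level than the median gene, and the part of that level in the count of calls was not tested. The labels do not say whether libraries of a code came from separate animals, so these p-values measure only the spread between the libraries deposited, which may be technical. In bulk tissue, fewer cells of a type and less RNA per cell cannot be told apart.

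**Figure D2:**
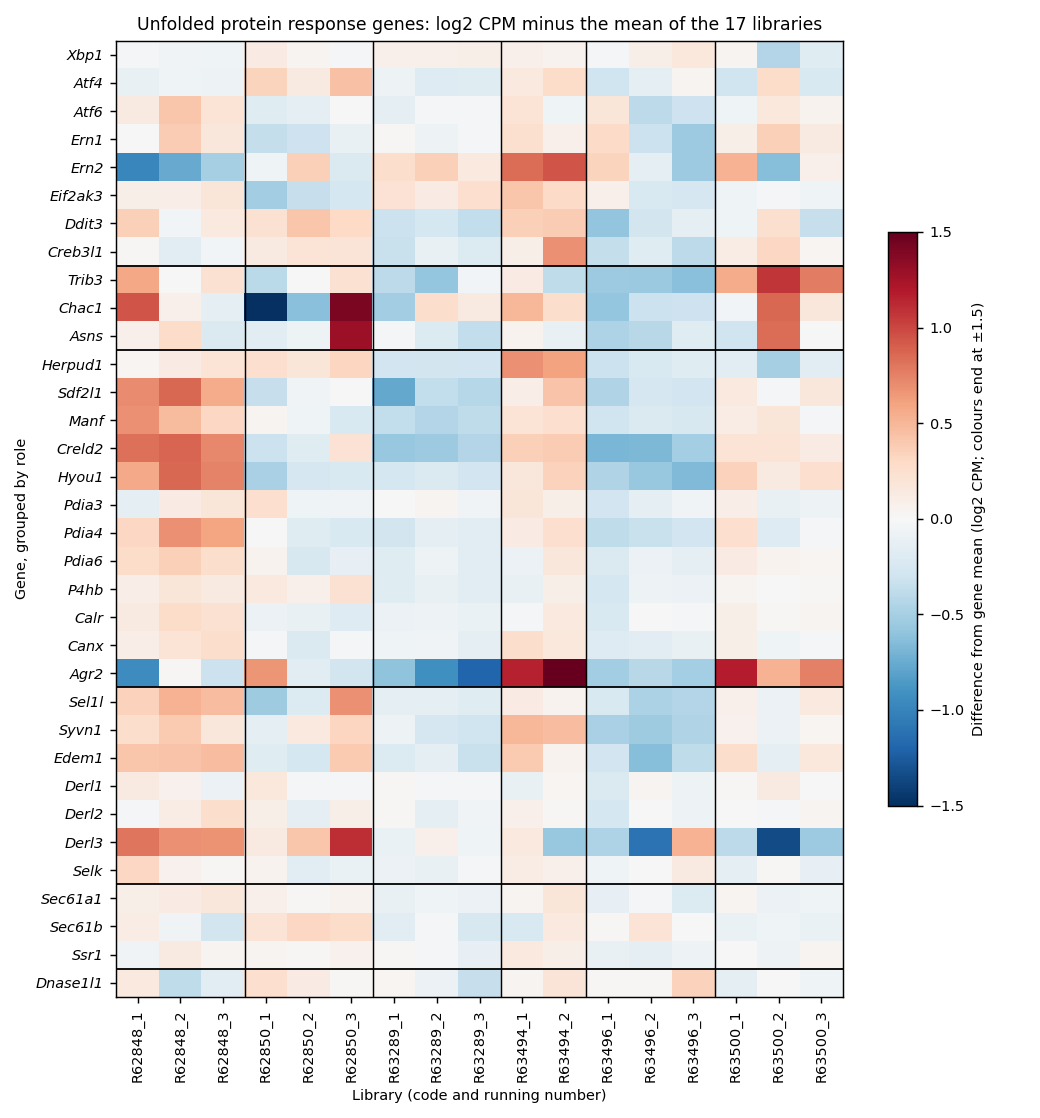
Level of each gene in each library as the difference in log2 CPM from the gene's mean over the 17 libraries, with genes in rows grouped by role and libraries in columns grouped by code. A block of chaperone genes is red in the 3 R62848 libraries and blue in the R63289 and R63496 libraries, and Asns and Chac1 are red in R62850_3 and R63500_2.

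Each code was then compared with the mean of the other 5 in the same fit. These 6 contrasts share their libraries and are given side by side. In R62848, 13 members were higher and 1 was lower (all genes: 15.2% higher, 10.6% lower). In R63494, 11 were higher and 0 lower (9.3% and 10.6%). In R63496, 0 were higher and 12 lower (4.98% and 6.52%). In R63289, 0 were higher and 7 lower (2.44% and 2.17%). In R62850, 5 were higher and 2 lower (11.7% and 12.8%), and in R63500, 3 were higher and 3 lower (13.2% and 8.93%). The 5 higher in R62850 and the 3 lower in R63500 were shares of the members near those of all genes. The 2 lower in R62850 and the 3 higher in R63500 were smaller shares than those of all genes. The median log2 difference of the 34 members was 0.17 in R62848, 0.15 in R63494, -0.18 in R63289 and -0.21 in R63496, whereas that of all genes lay between -0.01 and 0.01 in every contrast. Single libraries weighed on these counts. The members higher in R62848 numbered 7 without R62848_2 and 8 without R62848_3, and those higher in R63494 numbered 7 without R63494_1 and 4 without R63494_2. Those lower in R63289 numbered 4 without R63289_2 or R63289_3, and those higher in R62850 numbered 2, 3 and 1 without R62850_1, R62850_2 and R62850_3. Those lower in R62850 numbered 5 without R62850_3 and 4 without R63496_1, and those higher in R63500 numbered 1 without R63500_1. The 3 lower in R63500 became 1 without any of R62848_2, R63289_1, R63289_2, R63289_3, R63494_1 and R63500_3, and 1 member was higher in R63289 without R63496_1. The count of 12 lower in R63496 stayed between 8 and 13 when each library was left out.

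**Figure D3:**
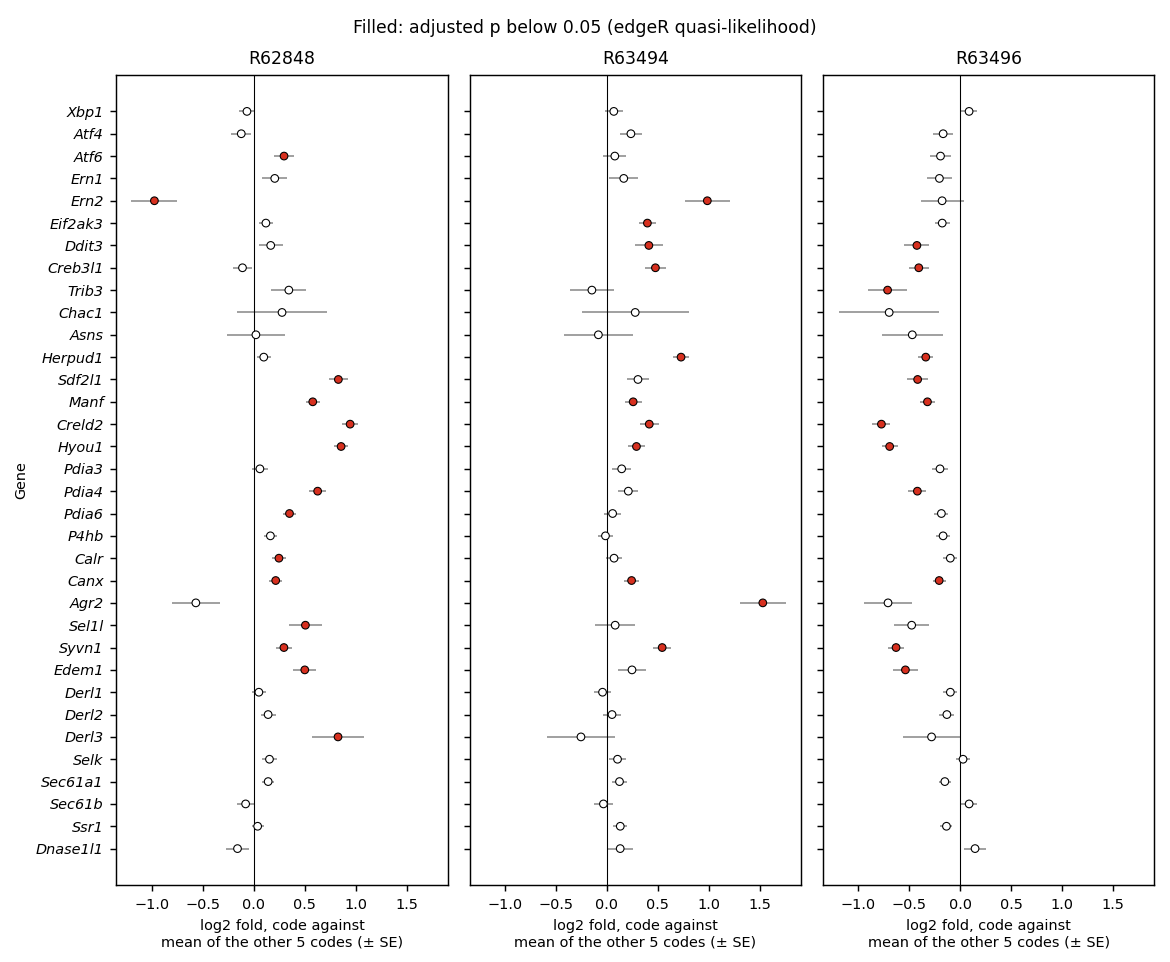
Log2 difference of each gene between 1 code and the mean of the other 5 codes, with its standard error, for R62848, R63494 and R63496; filled points passed an adjusted p of 0.05 in edgeR's quasi-likelihood test. Most chaperone genes lie right of 0 in R62848 and left of 0 in R63496, and Agr2 and Ern2 are the rightmost points in R63494.

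Among the sensors and factors, Xbp1, the factor that IRE1 activates by splicing its RNA, was abundant. Its median was 808 CPM, with 580 CPM in its lowest library, R63500_2, and 879 CPM in its highest, R63496_3, and the test over codes did not pass (adjusted p = 0.164; 0.0271 without R63500_1). Counts per gene do not separate the spliced from the unspliced form. In R63500 it was lower than the mean of the other codes (0.857-fold, adjusted p = 0.0454), a call that rested on R63500_2 (adjusted p = 0.308 without that library) and that leaving out any of 11 further libraries also ended.

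The gene of IRE1 itself, Ern1, ran from 75.2 to 142 CPM and did not pass between codes (adjusted p = 0.0806). It passed without R63496_1 (adjusted p = 3.73e-04) or R63496_3 (adjusted p = 0.0461). Atf6 ran from 60.2 to 105 CPM and did not pass either (adjusted p = 0.0729), but passed without R63496_1 (adjusted p = 0.00197). Ern2, the form of IRE1 found in mucus-secreting epithelium, behaved otherwise. It stood at 24.3, 28.3 and 33.7 CPM in the R62848 libraries and at 85.5 and 92.3 CPM in the R63494 libraries, with 30.6 to 68.4 CPM elsewhere. The R63494 libraries lay above all others, while R62848 overlapped with R63496 and R63500. Against the other codes Ern2 was 1.98-fold higher in R63494 (log2 0.98 ± 0.22 SE, adjusted p = 0.00736) and 0.51-fold in R62848 (log2 -0.97 ± 0.22, adjusted p = 0.00642). The first call ended when either R63494 library was left out (adjusted p = 0.0546 and 0.0862).

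Eif2ak3, the gene of PERK, was lowest in R62850 with 59.6, 67.1 and 71.3 CPM and highest in R63494 with 114 and 104 CPM. The R62850 libraries lay below all others and the R63494 libraries above all others. In R62850 the difference was 0.72-fold (adjusted p = 2.35e-04), and in R63494 it was 1.32-fold (adjusted p = 0.00183; 0.0721 without R63494_1).

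Atf4, the factor translated when PERK slows protein synthesis, was highest where Eif2ak3 was lowest. Its RNA stood at 211, 183 and 226 CPM there and at 135 to 203 CPM in the other libraries, with R63500_2 (203 CPM) and R63494_2 (203 CPM) next. It was 1.27-fold higher in R62850 (adjusted p = 0.012), but not without R62850_1 (adjusted p = 0.06) or R62850_3 (adjusted p = 0.0846). Ddit3, which encodes the stress factor CHOP, ran from 13.2 CPM in R63496_1 to 26.7 CPM in R62850_2. It was higher in R62850 and in R63494 and lower in R63496 (1.28-fold, 1.33-fold and 0.745-fold). Each of these 3 calls ended when single libraries of its own code were left out (adjusted p up to 0.147, 0.188 and 0.143), that in R63494 also without R63289_3 and that in R63496 also without R62848_3. Creb3l1, a membrane-bound factor of secretory cells, was lower in R63496 (0.754-fold, adjusted p = 0.0108; 0.0611 without R63496_3). In R63494 it reached 110 CPM in R63494_2 but 72.8 CPM in R63494_1, and without R63494_2 its call there ended (adjusted p = 0.475).

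Of the 3 ATF4 targets, Trib3 differed between codes, and Asns and Chac1 did not pass the test. Trib3, a pseudokinase induced by CHOP and ATF4, was highest in R63500 with 10.8, 15.4 and 12.5 CPM, and lowest in R63496 with 4.97, 4.92 and 4.68 CPM. The lowest of the other libraries had 4.82 CPM, and the R63500 range overlapped with R62848_1 only. The difference was 1.97-fold in R63500 (log2 0.98 ± 0.16, adjusted p = 2.00e-04) and 0.61-fold in R63496 (adjusted p = 0.0199; 0.0979 without R63496_2 and 0.0754 without R63496_3).

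Asns, the asparagine synthetase, stood at 74.2 CPM in R62850_3 and at 54.4 CPM in R63500_2, and between 22.0 and 36.9 CPM in the other 15 libraries. Chac1, which degrades glutathione, was low and scattered, from 0.507 CPM in R62850_1 to 6.86 CPM in R62850_3, with 4.90 CPM in R62848_1 and 4.63 CPM in R63500_2. Neither passed between codes (adjusted p = 0.35 and 0.773). For Chac1 the codes differed once R62850_3 was left out (adjusted p = 0.0447).

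The other known ATF4 targets bear on this pattern. R62850_3 and R63500_2 were also the 2 highest libraries for Psat1, Mthfd2, Slc7a5, Cth and Gars, which serve serine and one-carbon metabolism, amino acid import, cysteine synthesis and glycine charging. That is 5 of a list of 25 further ATF4 targets (20%), against 113 of all 15795 genes (0.715%). These 2 libraries were singled out after the values of Asns had been seen. Psat1 stood at 37.6 CPM in R62850_3 and 48.6 CPM in R63500_2, with 9.10 to 33.3 CPM elsewhere. Mthfd2 stood at 30.0 and 27.7 CPM, with 7.97 to 16.4 CPM elsewhere. The acinar markers summed to 129026 CPM in R62850_3, the highest of all libraries, and to 80.5 CPM in R63500_2. The summed level of 8 plasma cell markers was lowest in R63500_2 (2650 CPM) and was 6325 CPM in R62850_3. The 7 cytosolic heat shock genes summed to 4360 CPM in R63500_2, above the other libraries of its code (2467 and 2487 CPM), and to 3258 CPM in R62850_3, within the range of its code. The part of these levels in the pattern was not tested. Of the 25 further targets, 16 differed between codes (64%, against 48.7% of all genes). In R63500, 10 were higher and 0 lower (all genes: 13.2% and 8.93%), and in R63494, 0 were higher and 5 lower (9.3% and 10.6%). In R63496, 0 were higher and 6 lower (4.98% and 6.52%), and in R63289, 0 were higher and 1 lower (2.44% and 2.17%). In R62850, 6 were higher and 1 lower (11.7% and 12.8%), and in R62848, 5 were higher and 1 lower (15.2% and 10.6%).

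Chaperones and folding enzymes carried the clearest differences. Creld2, a disulphide isomerase of the ER that is a target of the stress response (ENSMUSG00000023272, mm10 chromosome 15, 88819646 to 88826681), stood at 118, 122 and 110 CPM in R62848. It stood at 41.3, 41.7 and 46.5 CPM in R63496 and at 44.8, 45.6 and 48.7 CPM in R63289. R63494 lay between with 84.9 and 86.6 CPM, R63500 with 72.2 to 76.7 CPM and R62850 with 53.1 to 77.0 CPM. The R62848 libraries lay above all others, and R63289 and R63496 overlapped at the bottom. Creld2 was 1.93-fold higher in R62848 (log2 0.95 ± 0.08, adjusted p = 2.84e-08) and 0.585-fold in R63496 (log2 -0.77 ± 0.09, adjusted p = 1.20e-05). Its code means were 2.7-fold apart.

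Hyou1, a large chaperone of the ER known for its induction by low oxygen (ENSMUSG00000032115, mm10 chromosome 9, 44379490 to 44392369), followed nearly the same order. It was picked after its values had been seen. It stood at 388, 473 and 437 CPM in R62848, at 293 and 331 CPM in R63494, at 286 to 332 CPM in R63500 and at 165 to 223 CPM in the other 9 libraries. The difference was 1.81-fold in R62848 (adjusted p = 2.97e-08) and 0.619-fold in R63496 (adjusted p = 1.19e-05). Hyou1 was also lower in R62850 (0.756-fold, adjusted p = 0.00107) and in R63289 (0.795-fold, adjusted p = 0.014). The call in R63289 ended when any of the libraries of that code was left out (adjusted p up to 0.098). In R63494 (1.22-fold) and R63500 (1.21-fold) its calls ended without R63494_2 (adjusted p = 0.299), and without R63500_1 (adjusted p = 0.078) or R63500_3 (adjusted p = 0.0558).

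Sdf2l1, Manf and Pdia4 completed this group. Sdf2l1, a partner of the chaperone BiP, stood at 86.4, 95.8 and 77.5 CPM in R62848 against 30.9 to 71.0 CPM elsewhere (1.78-fold, adjusted p = 1.22e-06). Manf, a secreted ER stress protein, stood at 252, 219 and 194 CPM in R62848 against 115 to 187 CPM elsewhere (1.49-fold, adjusted p = 3.78e-06). Pdia4, a disulphide isomerase, stood at 317, 413 and 385 CPM in R62848 against 197 to 306 CPM elsewhere (1.54-fold, adjusted p = 1.09e-05). In all 3 genes the R62848 libraries lay above every other library. All 3 were lower in R63496 (0.749-fold, 0.8-fold and 0.747-fold), and Sdf2l1 and Manf also in R63289 (0.64-fold and 0.71-fold).

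The abundant folding genes moved less. Calr stood at 1291, 1420 and 1380 CPM in R62848 and at 1005 to 1301 CPM in the other libraries, a 1.19-fold difference (adjusted p = 0.00814) that did not pass without R62848_2 (0.072) or R62848_3 (0.0644). P4hb ran from 935 CPM in R63496_1 to 1307 CPM in R62850_3. It differed between codes (adjusted p = 0.0126), with code means 1.24-fold apart. It was higher in R62850 (1.13-fold, adjusted p = 0.0451), a call that leaving out any of 9 libraries ended (adjusted p up to 0.2, without R62850_3). Pdia3 did not pass between codes (829 to 1207 CPM, adjusted p = 0.29). Pdia6 was 1.28-fold higher in R62848 (adjusted p = 6.25e-04). Canx, the membrane-bound partner of calreticulin, was higher in R62848 and R63494 (1.16-fold and 1.18-fold) and lower in R63496 (0.866-fold). None of its 3 calls held without each library: that in R62848 ended without R62848_2 or R62848_3, that in R63494 without either of its libraries, and that in R63496 without any of 14 libraries (adjusted p up to 0.166, 0.279 and 0.178).

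Herpud1, a membrane protein that links the stress response to degradation (ENSMUSG00000031770, mm10 chromosome 8, 94386438 to 94395377), did not follow the order of Creld2. It stood at 672 and 636 CPM in R63494, at 473 to 523 CPM in R62850, at 429 to 481 CPM in R62848 and at 296 to 376 CPM in the other 9 libraries. R63494 lay above all others. The difference was 1.65-fold in R63494 (log2 0.73 ± 0.08, adjusted p = 2.45e-06). Herpud1 was lower in R63289 (0.766-fold, adjusted p = 0.00324), R63500 (0.78-fold, adjusted p = 0.00122) and R63496 (0.791-fold, adjusted p = 0.00551). It was 1.19-fold higher in R62850 (adjusted p = 0.012), but not without R62850_3 (adjusted p = 0.0698). Herpud1 was the member whose windows held both an ATF4 and an ER stress element. Like Herpud1, Atf4 and Ddit3 had higher medians in R62850 and R63494 than in R63289 and R63496. In R63500, where Herpud1 was 0.78-fold, Atf4 was 0.938-fold and Ddit3 0.943-fold (neither called), and the ATF4 target Trib3 was 1.97-fold. In R62848, Herpud1 was 1.07-fold, Atf4 0.919-fold and Ddit3 1.12-fold, none of them called. A link between these genes was not tested.

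Agr2, a disulphide isomerase that folds mucins (ENSMUSG00000020581, mm10 chromosome 12, 35992907 to 36004087), had the largest difference between code means of all members, 4.81-fold. It stood at 117 and 156 CPM in R63494, at 119, 75.5 and 89.1 CPM in R63500, at 83.2, 47.1 and 43.2 CPM in R62850 and at 23.0 to 53.1 CPM in the other 9 libraries. R63500 overlapped with R63494 and with R62850. It was 2.88-fold higher in R63494 (log2 1.53 ± 0.23, adjusted p = 4.92e-04), 1.86-fold higher in R63500 (adjusted p = 0.00767; 0.0638 without R63500_1) and 0.439-fold in R63289 (adjusted p = 0.0144; 0.0903 without R63289_2 and 0.0965 without R63289_3). The summed level of 10 mucin and gland markers was 1164 to 1344 CPM in R62850, 776 to 985 CPM in R63494, 547 to 863 CPM in R63496, 475 to 611 CPM in R63500, 384 to 498 CPM in R62848 and 354 to 473 CPM in R63289. Its part in the level of Agr2 was not tested.

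**Figure D4:**
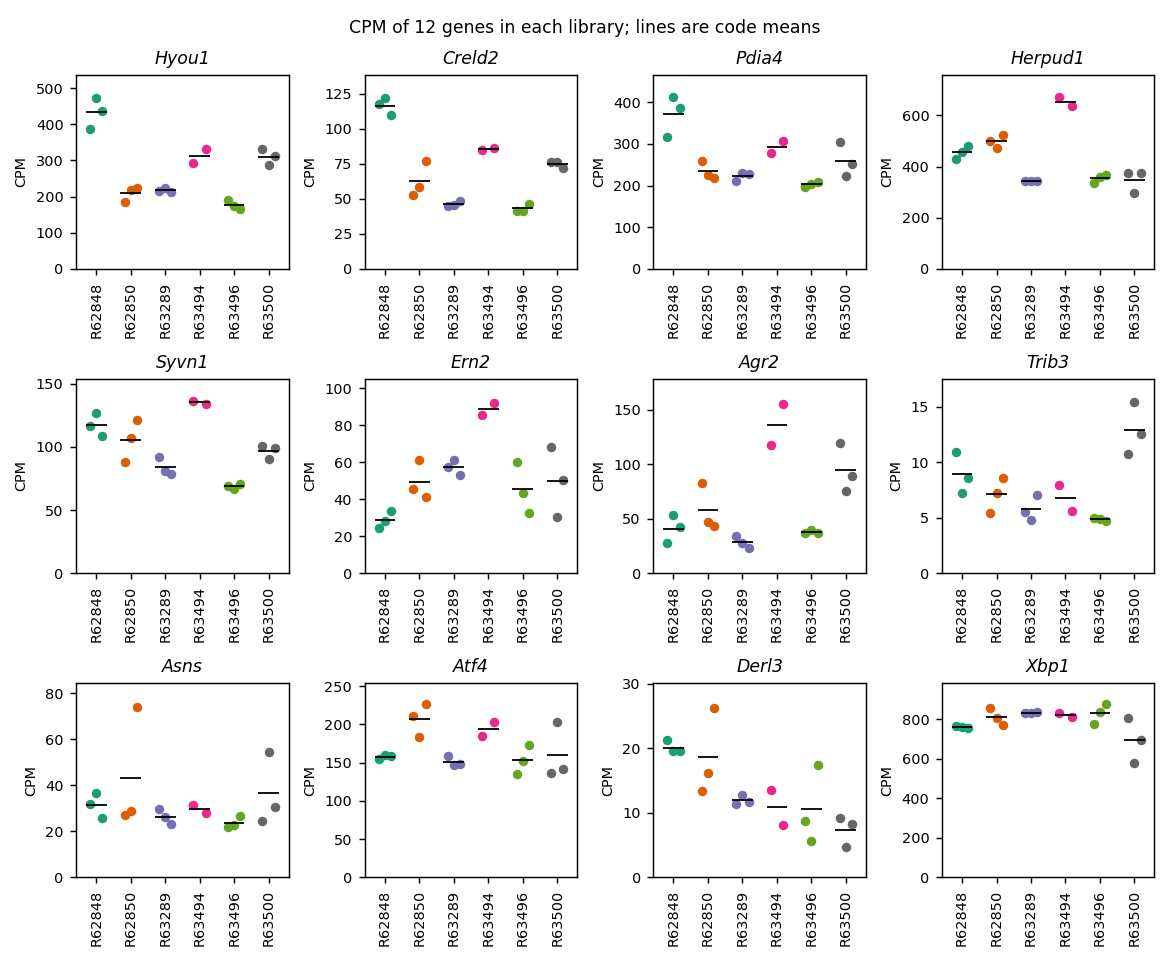
CPM of 12 genes in each library by code; points are libraries and lines are code means, with every axis starting at 0. Hyou1, Creld2 and Pdia4 are highest in R62848, Herpud1, Syvn1, Ern2 and Agr2 in R63494 and Trib3 in R63500, and Asns is high in 1 library each of R62850 and R63500.

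Of the genes of ER-associated degradation, Syvn1, Edem1 and Derl3 differed between codes, and Sel1l, Derl1, Derl2 and Selk did not pass the test. Syvn1, the ubiquitin ligase HRD1, stood at 136 and 134 CPM in R63494, at 116, 127 and 109 CPM in R62848, and at 69.0, 66.7 and 70.5 CPM in R63496. The R63494 libraries lay above and the R63496 libraries below all others. It was 1.46-fold higher in R63494 (adjusted p = 1.97e-04) and 0.646-fold in R63496 (adjusted p = 6.76e-05). The smaller differences, 1.23-fold in R62848 and 0.821-fold in R63289, ended without R62848_2 (adjusted p = 0.0901) and without any of 11 libraries (adjusted p up to 0.27), respectively.

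Sel1l, the partner of the ligase, stood at 214, 243 and 232 CPM in R62848 and at 271 CPM in R62850_3, against 117 and 147 CPM in the other R62850 libraries. Its test over codes did not pass with all libraries (adjusted p = 0.0696), but passed without R62850_3 (adjusted p = 1.77e-05) or R62850_1 (adjusted p = 0.00518). Its 1.42-fold difference in R62848 (adjusted p = 0.033) ended without any of its 3 libraries, R63494_2 or R63500_2 (adjusted p up to 0.15). Edem1, which extracts misfolded glycoproteins, likewise stood at 150 CPM in R62850_3, above the other R62850 libraries (at most 101 CPM). It was 1.42-fold higher in R62848 (153, 154 and 158 CPM, adjusted p = 0.00353) and 0.689-fold in R63496 (adjusted p = 0.00998; 0.0994 without R63496_2).

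Derl3, the Derlin of secretory cells, was the most variable of its role. It stood at 21.3, 19.6 and 19.5 CPM in R62848, at 13.4, 16.3 and 26.3 CPM in R62850, and at 9.21, 4.74 and 8.26 CPM in R63500. Within R63496 it stood at 8.81, 5.60 and 17.4 CPM. In R62850 the order of the libraries was that of the acinar markers. In R63496 the high library, R63496_3, was also the one with the most plasma cell RNA (summed markers 14836 CPM, against 5403 and 4967 CPM; Jchain 1924 CPM, against 588 and 537 CPM), and R63500_2 had both the lowest Derl3 and the lowest plasma cell sum. In R63289 the library with the highest plasma cell sum, R63289_1 (12262 CPM), had the lowest Derl3 of its code (11.3 CPM). The plasma cell sums of R62848 (9448 to 14504 CPM) and R63289 (9320 to 12262 CPM) overlapped. Derl3 stood at no less than 19.5 CPM in R62848 and at 11.3 to 12.8 CPM in R63289. The part of either cell type in the level of Derl3 was not tested. It was 1.77-fold higher in R62848 (adjusted p = 0.0284) and 0.536-fold in R63500 (adjusted p = 0.0409). The first call ended without any R62848 library or R63494_2 (adjusted p up to 0.0931), and the second without any of 10 libraries (adjusted p up to 0.206, without R63500_2). Derl1 (115 to 149 CPM), Derl2 (58.2 to 83.5 CPM) and the ER selenoprotein Selk (65.8 to 90.5 CPM) did not pass between codes (adjusted p = 0.66, 0.341 and 0.175).

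Among the channel genes, Sec61a1, the pore of the channel, ran from 314 to 410 CPM, and its difference between codes (adjusted p = 0.0424) ended when any of 13 libraries was left out (adjusted p up to 0.106). Sec61b, a small subunit, stood at 96.0, 103 and 101 CPM in R62850, above all other libraries, which ran from 68.9 to 95.7 CPM (1.24-fold, adjusted p = 0.00818). Ssr1, a subunit of the translocon-associated complex, ran from 207 to 251 CPM and did not pass (adjusted p = 0.215).

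Other genes of the pathway were taken from lists by function. Of 19 further ER chaperones and folding genes, 16 differed between codes (84.2%, against 48.7% of all genes). In R62848, 9 were higher and 2 lower (all genes: 15.2% and 10.6%), and in R63496, 0 were higher and 8 lower (4.98% and 6.52%). In R63494, where 11 of the 34 members were higher, 2 of these genes were higher and 1 lower (9.3% and 10.6%). In R62850, 5 were higher and 2 lower (11.7% and 12.8%). In R63500 it was 3 and 3 (13.2% and 8.93%), and in R63289 1 and 3 (2.44% and 2.17%). Hspa5, the gene of the central chaperone BiP, stood at 1354, 1670 and 1558 CPM in R62848, at 1194 and 1148 CPM in R63494, at 1045 to 1162 CPM in R63500, and at 579, 632 and 654 CPM in R63496. The R62848 libraries lay above and the R63496 libraries below all others, and the difference was 1.75-fold in R62848 (adjusted p = 4.28e-08) and 0.593-fold in R63496 (adjusted p = 3.31e-06). Hsp90b1, the ER form of HSP90, was 1.47-fold higher in R62848 and 0.735-fold in R63496. Ero1l, the oxidase that recharges disulphide isomerases and is also induced by hypoxia, was 2.3-fold higher in R62848, 2.02-fold higher in R63500 and 0.477-fold in R63496. The collagen-folding isomerase Fkbp14 was higher in R62848 and R63500 (1.53-fold and 1.88-fold) and 0.453-fold in R63494. The cyclophilin Ppib, with the highest RPKM of this list (median 233), had code means only 1.29-fold apart.

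Transport out of the ER was represented by the coats and cargo receptors of vesicles. Of 23 genes of ER-to-Golgi transport, 14 differed between codes (60.9%, against 48.7% of all genes). In R62848, 9 were higher and 1 lower (all genes: 15.2% and 10.6%), and in R63500, 7 and 0 (13.2% and 8.93%). In R63496, 0 were higher and 10 lower (4.98% and 6.52%), and in R62850, 2 and 5 (11.7% and 12.8%). In R63494, 1 was higher and 2 lower (9.3% and 10.6%), and in R63289, 0 and 1 (2.44% and 2.17%). Sec24d, a coat protein used by procollagen, was 1.66-fold higher in R62848, 1.35-fold in R63500 and 0.71-fold in R63496. Kdelr3, a receptor that returns ER proteins, was 2.03-fold higher in R62848, 1.94-fold higher in R63500 and 0.497-fold in R63494. The abundant genes Surf4, Kdelr2 and Tmed10 had code means 1.11-fold, 1.31-fold and 1.12-fold apart. Of 26 measured genes of targeting, translocation and glycosylation, 13 differed (50%, near the 48.7% of all genes). In R62850, 8 were higher (all genes: 11.7%), and Srp9, a signal recognition particle subunit, was 1.43-fold higher there. The glycosylation genes Ddost, Rpn1 and Rpn2 did not pass (adjusted p = 0.0889, 0.263 and 0.338). Of 17 further degradation genes, 8 differed (47.1%, near the 48.7% of all genes). The segregase Vcp did not pass (adjusted p = 0.473), and Edem3 was 1.36-fold higher in R62848.

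Other programmes also differed between the codes. All 7 fibroblast markers were higher in R62848 and 6 in R63500, while 7 were lower in R63494, 4 in R62850 and 2 in R63289. Of 10 hypoxia and glycolysis genes, 9 were higher in R62848 and 10 in R63500. Of these genes, 9 were lower in R62850, 7 in R63496, 6 in R63494 and 5 in R63289. Of all genes, 15.2% were higher and 10.6% lower in R62848, 13.2% and 8.93% in R63500, and 9.3% and 10.6% in R63494. In R62850 these shares were 11.7% and 12.8%, in R63496 4.98% and 6.52%, and in R63289 2.44% and 2.17%. The same shares apply to the heat shock genes and cell markers below. Of the members, 3 were higher and 3 lower in R63500, and 11 were higher and 0 lower in R63494. The summed fibroblast level was 9730 to 10509 CPM in R62848 and 9378 to 11383 CPM in R63500, against 2567 to 2822 CPM in R63494 and 4216 to 6213 CPM in the remaining codes. The summed hypoxia level was 2266 to 2396 CPM in R62848 and 2016 to 2533 CPM in R63500, against 1116 to 1293 CPM in the remaining codes. The cytosolic heat shock genes summed to 5329 to 5743 CPM in R63494, 3083 to 3582 CPM in R62850, 1770 to 2119 CPM in R62848, 1359 to 1388 CPM in R63289 and 1225 to 1484 CPM in R63496. In R63500 they summed to 4360 CPM in R63500_2 and to 2487 and 2467 CPM in the other libraries. Of the 7 genes, 6 were higher in R63494, 5 in R62850 and 4 in R63500, and 6 were lower in R63289, 7 in R63496 and 2 in R62848. Summed plasma cell markers were 9448 to 14504 CPM in R62848, overlapping with R63289 (9320 to 12262 CPM), in which 7 members were lower. All 10 cholangiocyte markers differed between codes (48.7% of all genes). In R62848, 1 of them was higher and 5 lower, and in R63494, 3 were higher and 2 lower. Of 4 measured neutrophil markers, 4 were higher in R62848 and 4 lower in R63500. Of 6 macrophage markers, 4 were higher in R62848, 4 higher in R63500 and 6 lower in R63494. For 5 endothelial markers these counts were 3, 3 and 3. The part of these programmes and cells in the levels of the members was not tested.

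The members with an ER stress element in the promoter window were compared by counts alone. All 6 of them, Calr, Canx, Creld2, Derl3, Pdia6 and Syvn1, were among the members higher in R62848, as were 4 of the 21 matched members without it, against 15.2% of all genes. The call held under every alternative that was run for 2 of these 6, Creld2 and Pdia6, and for 3 of these 4, Edem1, Pdia4 and Sdf2l1. It ended for the others when single libraries were left out. The 7 members with no matched promoter included Hyou1, Manf and Atf6, which were also higher there. Calls for Atf6 in R62848 ended without R62848_2 (adjusted p = 0.227) or R62848_3 (adjusted p = 0.0807). Members were counted by promoter in this contrast only. Of the 6 with the element, only Canx, Creld2 and Syvn1 were higher in R63494, and only these genes were lower in R63496. Creld2 and Syvn1 were lower in R63289, Derl3 was lower in R63500, and none was called in R62850. The part of the element in these calls was not tested. Over all members, 16 of the 22 differences between codes held under every alternative in which they were followed. DESeq2 was not among these, and for Eif2ak3 neither was leaving out the R62850 libraries. The 16 were Agr2, Canx, Creb3l1, Creld2, Ddit3, Edem1, Eif2ak3, Ern2, Herpud1, Hyou1, Manf, Pdia4, Pdia6, Sdf2l1, Syvn1 and Trib3. The other 6 were Atf4, Calr, Derl3, P4hb, Sec61a1 and Sec61b.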

How the data were processed

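The authors deposited a table of whole, not normalised read counts per gene for 17 libraries. Alignment and counting tools in the submitters' processing notes are featureCounts and STAR 2.6.1c; edgeR 3.40.2 and the build mm10 are listed there as well. Neither annotation release nor strand setting is stated, which leaves reads of overlapping, antisense or nearly identical genes uncertain. A further 17 columns of per-sample values were not used. Column headings matched no sample title and were tied only to the single labelled group. The members and the gene lists were chosen with earlier results of these data known.

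Genes were kept with filterByExpr of edgeR 4.0.16 (R 4.3.3) and an intercept-only grouping and scaled with TMM factors. CPM and RPKM refer to the scaled counts of kept genes, RPKM also to the gene length in the table. A robust quasi-likelihood fit over the 6 heading codes (11 residual degrees of freedom) gave an F test over codes and 6 contrasts of 1 code against the mean of the other 5, with Benjamini-Hochberg adjustment over 15795 genes and a threshold of 0.05. The standard error of a log2 difference is its size divided by the square root of its F. Log2 CPM used a prior count of 2. All 34 members are accounted for. In each role, the rule chose the 2 members highest by median RPKM and the 2 whose code means lay farthest apart. Their values are given by library or as a range. From each other list, the rule chose the 3 highest by RPKM and the 2 with code means farthest apart. Not all of these were named. Genes beyond this rule were picked with their values known. Sequences are from RefSeq GRCm38.p6. Alternatives were RLE factors, library totals, no filter, DESeq2 1.42.0, a prior count of 0.5, leaving out each library or the R62850 libraries and, chosen after seeing the data, leaving out R62850_3 with R63500_2. The fit was tested on simulated data with 200 genes changed in R62848. Of 1.5-fold changes, 59.8% were called with the right sign in the R62848 contrast, and 37.1% in the F test over codes. At 2.25-fold these shares were 87.9% and 80.8%. Among unchanged genes, 11 were called in the contrast and 8 in the F test. A member that did not pass may thus still differ by such amounts.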

Additional observations from a re-analysis of the deposited data

How the results depend on the processing

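No difference of a single member that had passed the test changed its direction under the alternatives run. Among those that had not passed, the difference of Chac1 between its highest and lowest code turned from 0.81 to -0.02 (log2) without R62850_1. The count of members that differed between codes lay between 18, without the R62850 libraries, and 24, with DESeq2, and between 20 and 23 when each library was left out. With library totals in place of TMM factors, 7 members were higher in R63494. Without the R62850 libraries, 1 member was lower in R63500, and without R62850_3 and R63500_2, 5 were lower in R62850; the cause was not tested. Leaving out each library in turn gave 7 to 14 members higher in R62848, 1 to 6 higher and 2 to 5 lower in R62850, 0 to 1 higher and 4 to 8 lower in R63289, 4 to 12 higher in R63494, 8 to 13 lower in R63496, and 1 to 4 higher and 1 to 3 lower in R63500. Leaving out 1 library of R63494 left a lone library, assumed to vary like those of the other codes. The number of members with over a 2-fold range lay between 15 and 17. Of the single-member values under alternatives, 1871 kept their outcome, 162 no longer passed and 10 newly passed. The 1871 include members that passed neither in the main fit nor under the alternative. No paired analysis was possible because the labels give 1 group only. Depth limits the lowest member, Chac1, which had 9 counts in its lowest library. The 6 contrasts rest on 2 or 3 libraries a code.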
